A study of Mus musculus with 6 samples.

Results

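The AP-1 family genes described here are *Fos*, *Fosb*, *Fosl1*, *Fosl2*, *Jun*, *Junb*, *Jund*, *Atf3*, *Batf3* and *Jdp2*, 10 of the 19938 genes that could be named on the array. A gene was taken as the transcript cluster (the array's unit for one gene) that carried exactly its symbol, and each of the 10 had 1 such cluster. AP-1 is a transcription factor that binds DNA as a dimer of proteins with a basic region and a leucine zipper. Fos proteins pair with Jun proteins, Jun proteins also pair with each other, and the ATF, BATF and JDP proteins join or compete with them at the same or similar DNA sites. Several of these genes are immediate early genes, switched on within a short time by growth factors through MAP kinases, and *Jun* and *Atf3* are well known from injured peripheral nerve, where they rise in Schwann cells and neurons.

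The arrays (Affymetrix mouse Gene 1.0 ST, 35556 clusters) measured total RNA from enterospheres, free-floating aggregates grown from the enteric nervous system progenitors of the newborn gut. Each sample was made from the gut muscle of 3 neonatal C57BL/6 mice up to 12 hours old, and spheres were divided between the media, but the labels do not say which samples of the 2 groups came from the same preparation. The paper's methods describe 3 independent experiments, and do not say which arrays belong to each. The proliferation group (n = 3) stayed for 11 days in medium with EGF (10 ng/mL) and FGF (20 ng/mL) added daily. The differentiation group (n = 3) had the same medium for 9 days. It then had 2 days in medium without EGF and FGF but with ascorbic acid-2-phosphate. The labels also make the B27 supplement part of the proliferation medium, while the paper's methods give it once before seeding. Growth factor withdrawal, the added compound and a possible loss of B27 cannot be told apart. Spheres were picked while floating, at about 50 per dish, and remained a mixture of cell types, so more cells of a type and more RNA per cell cannot be told apart either. Markers of the labelled tissue were measured in both groups. *Sox10*, a transcription factor of enteric glia and progenitors, lay between 11.30 and 11.71 on the log2 scale over the 6 arrays, and *Ret*, the GDNF receptor kinase of enteric neuron precursors, between 11.14 and 11.51. Arrays of a group correlated at 0.988 to 0.995 and arrays of different groups at 0.983 to 0.989, and no array was left out.

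The question addressed was how the AP-1 genes differed once the spheres left the growth factors. *Atf3*, *Fosl2*, *Jdp2* and *Jun* rose, by 1.65-fold to 2.58-fold, and no member was called lower. These 4 of 10 stood past an adjusted p of 0.05 in limma, where 2.94% of all genes were called higher and 2.97% were called lower. The members were chosen with earlier results of these data known, so this count is a description and not independent evidence. The other 6, *Fos*, *Fosb*, *Fosl1*, *Junb*, *Jund* and *Batf3*, did not pass. On the lower side 1 member, *Fosb*, had an unadjusted p under 0.05 in limma. Of all 35556 clusters, 5560 had one, both directions together. A limma fit with the replicate number as a term, assuming that equal numbers mark 1 preparation, changed some calls. In it *Jun* (adjusted p = 0.0695) and *Atf3* (0.0839) were not called and *Fosb* was called lower (0.0425). The median log2 fold change of the 10 members was 0.40, against 0.02 over all genes. For 6 members every differentiation array lay above every proliferation array, which held for 14.6% of all genes. For 1 member, *Fosb*, every differentiation array lay below, which held for 12.9% of all genes.

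**Figure D1:**
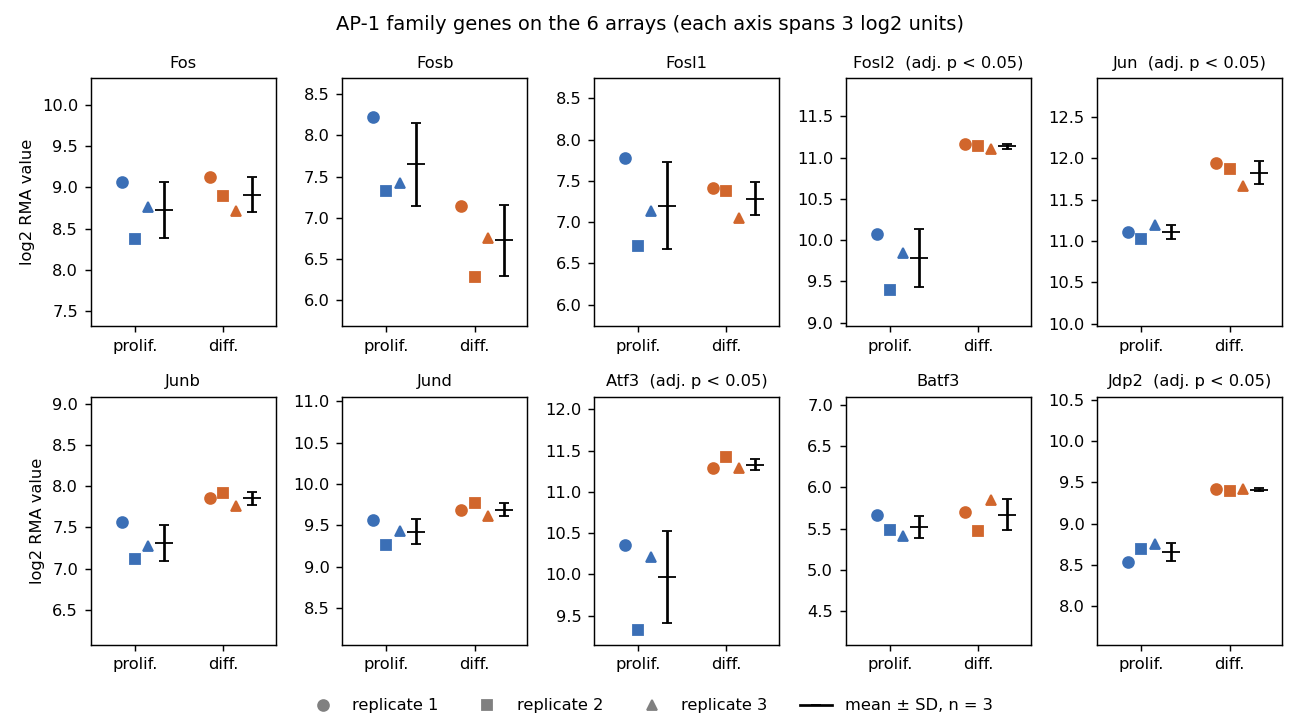
Log2 RMA values of the 10 AP-1 family genes on the 3 proliferation (blue) and 3 differentiation (orange) arrays, with the mean and SD of each group in black and axes that each span 3 log2 units. The groups are apart for *Fosl2*, *Jun*, *Junb*, *Jund*, *Atf3* and *Jdp2* (higher) and *Fosb* (lower), and they overlap for *Fos*, *Fosl1* and *Batf3*.

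Among the Fos proteins, which cannot form stable dimers with each other and need a Jun partner, a single gene passed the test. *Fosl2* encodes FRA2, which lacks the strong activation domain of FOS. It measured 10.08, 9.40 and 9.85 in the proliferation samples and 11.17, 11.14 and 11.11 in the differentiation samples. The 3 differentiation values lay within a narrow band, at 11.14 ± 0.03 (SD, n = 3), and the lowest was 1.02 above the highest proliferation value. The log2 fold change was 1.36 ± 0.17 (SE), which is 2.57-fold (95% CI 1.94 to 3.39), with an adjusted p of 0.00923 in limma.

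*Fos*, the founding immediate early gene of the family, measured 9.06, 8.38 and 8.76 in proliferation and 9.12, 8.90 and 8.71 in differentiation. The groups overlapped, and the log2 fold change was 0.18 with a 95% CI from -0.27 to 0.62 (limma, adjusted p = 0.736). *Fosl1*, which encodes FRA1 and is itself a known target of AP-1, also overlapped. Its values were 7.77, 6.71 and 7.13 in proliferation and 7.41, 7.38 and 7.05 in differentiation, with a log2 fold change of 0.08 (95% CI -0.54 to 0.70, limma, adjusted p = 0.926). That small difference turned to -0.17 when proliferation replicate 2, the lowest array, was left out, so no direction can be given for it.

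*Fosb* was the one member with a negative log2 fold change. Its gene also gives rise to the short ΔFOSB protein by splicing, and the single cluster does not separate the forms. The values were 8.22, 7.32 and 7.42 in proliferation and 7.15, 6.28 and 6.76 in differentiation. All differentiation values lay below all proliferation values, by a gap of 0.17, while the spread within the groups was 0.50 and 0.43 (SD). The log2 fold change was -0.92 ± 0.30 (SE), with an unadjusted p of 0.0183 and an adjusted p of 0.186 in limma. *Fosb* was thus not called in this fit, but was called lower with the replicate number as a term (limma, adjusted p = 0.0425).

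In the Jun group, *Jun* rose and its relatives had smaller values in the same direction. *Jun*, the strongest activator of the group, measured 11.11, 11.02 and 11.20 in proliferation and 11.95, 11.87 and 11.67 in differentiation. The groups were 0.47 apart at their nearest values. The log2 fold change was 0.72 ± 0.10 (SE), or 1.65-fold (95% CI 1.39 to 1.95), with an adjusted p of 0.0147 in limma.

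*Junb*, a weaker activator that can oppose *Jun*, measured 7.56, 7.12 and 7.27 in proliferation and 7.86, 7.92 and 7.76 in differentiation. *Jund*, the most widely expressed of the Jun genes, measured 9.56, 9.26 and 9.43 and then 9.68, 9.77 and 9.61. For both, the lowest differentiation array was above the highest proliferation array, by 0.20 for *Junb* and 0.05 for *Jund*. *Junb* had a log2 fold change of 0.53 (95% CI 0.23 to 0.83) with an adjusted p of 0.0785 in limma, and *Jund* one of 0.27 (95% CI 0.02 to 0.52) with an adjusted p of 0.265. *Junb* was close to the threshold and passed it where fewer clusters entered the adjustment, with an adjusted p of 0.0356 over the brighter clusters and 0.0301 over clusters with a single symbol.

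In the third group, *Atf3* and *Jdp2* rose. *Atf3* encodes a stress-induced factor that is used as a marker of injured sensory neurons. It measured 10.36, 9.33 and 10.21 in proliferation and 11.29, 11.42 and 11.29 in differentiation. The groups were 0.93 apart at their nearest values, and proliferation was the more spread group, at 9.97 ± 0.56 against 11.33 ± 0.07 (SD, n = 3 each). The log2 fold change was 1.37 ± 0.26 (SE), or 2.58-fold (95% CI 1.68 to 3.95), with an adjusted p of 0.0367 in limma.

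*Jdp2* encodes the Jun dimerization protein, a repressor at AP-1 sites. It measured 8.53, 8.69 and 8.75 in proliferation and 9.42, 9.39 and 9.42 in differentiation. It had the smallest standard error of the 10 members, and its log2 fold change was 0.75 ± 0.09 (SE), or 1.69-fold (95% CI 1.46 to 1.95), with an adjusted p of 0.00729 in limma. *Batf3*, a factor needed for a class of dendritic cells, measured 5.67, 5.48 and 5.41 and then 5.70, 5.47 and 5.85. No other member had a mean under 6.15, the median over clusters, and its log2 fold change was 0.15 (95% CI -0.15 to 0.45, limma, adjusted p = 0.647). The table holds no detection call, so whether the *Batf3* values are above background is not known.

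**Figure D2:**
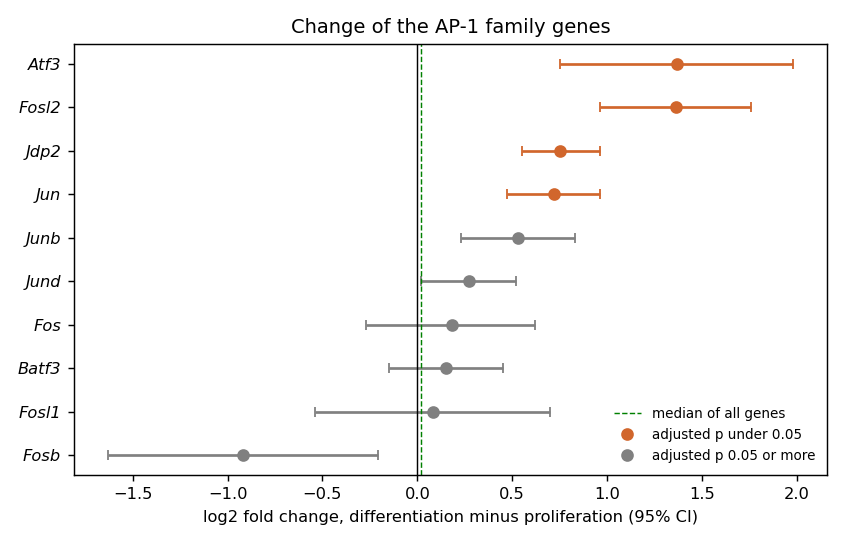
Log2 fold change (differentiation minus proliferation) of the 10 AP-1 family genes with 95% confidence intervals from limma, sorted, with the 4 called genes in orange and the median of all genes as a dashed line at 0.02. *Atf3* (1.37) and *Fosl2* (1.36) lead, *Jdp2* (0.75) and *Jun* (0.72) follow, and *Fosb* (-0.92) is alone on the lower side.

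Called members were then set against uncalled genes by their change, taking the difference of their log2 values within each array. The uncalled gene was of the same group or, for *Jdp2*, a neighbour in the genome (next paragraph). Of 8 such pairs, 6 had differences that did not overlap between the groups. Because each pair held a called member, a lack of overlap was partly built in. The share over all gene pairs was not computed, so the count is a description only. The change of *Fosl2* exceeded that of *Fos* by 1.18, that of *Fosl1* by 1.28 and that of *Fosb* by 2.28 log2 units. The difference between *Fosl2* and *Fos* was 1.03, 1.02 and 1.09 in the proliferation samples and 2.05, 2.24 and 2.40 in the differentiation samples, a narrower spread in proliferation (SD 0.04) than either gene had alone. The change of *Atf3* exceeded that of *Batf3* by 1.21, and that of *Jun* exceeded that of *Jund* by 0.45. Each of these had an exact two-sided permutation p of 0.1, the smallest that 3 against 3 arrays allow, and 0.133 after Benjamini-Hochberg adjustment over the 8 pairs, so none could pass. *Jun* and *Junb* differed in change by 0.19 and overlapped (exact permutation p = 0.2).

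Some members are neighbours in the genome. *Fos*, *Jdp2* and *Batf*, a further leucine zipper gene, follow each other with 0 protein-coding genes between them in RefSeq. Their changes were unlike in size: *Jdp2* rose, *Fos* overlapped between the groups, and *Batf* measured 5.90, 5.80 and 5.84 and then 5.89, 5.79 and 6.14 (log2 fold change 0.09, limma, adjusted p = 0.759). The change of *Jdp2* exceeded that of *Batf* by 0.66, with no overlap between the groups (exact permutation p = 0.1), and that of *Fos* by 0.58, with overlap (exact permutation p = 0.2). *Atf3* and *Batf3* lie on chromosome 1 with 1 protein-coding gene between them.

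The promoters of the 4 genes that rose are shown with that of *Fos*, the neighbour of *Jdp2* that was not called, so that the sequences of genes with unlike changes can be read side by side. They are the 250 bases before the RefSeq start (GRCm38.p6), 5′ to 3′ on the gene's strand, and *Jdp2* is given for the first of its 3 starts. Capitals mark matches on either strand to TGANTCA (the classical AP-1 site), TGACNTCA or TNACGTCA (CRE-like sites bound by ATF and Jun dimers), TGACG (a CRE half-site, which overlaps the longer forms), the CArG box bound by SRF, or TATAAA.
Atf3, chr1:191183334-191183583, minus strand: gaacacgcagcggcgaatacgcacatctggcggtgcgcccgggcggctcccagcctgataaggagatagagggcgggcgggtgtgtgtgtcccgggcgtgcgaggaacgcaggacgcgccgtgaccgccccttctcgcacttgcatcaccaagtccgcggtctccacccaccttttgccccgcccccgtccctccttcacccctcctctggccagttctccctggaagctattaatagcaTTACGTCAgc
Fosl2, chr5:32136222-32136471, plus strand: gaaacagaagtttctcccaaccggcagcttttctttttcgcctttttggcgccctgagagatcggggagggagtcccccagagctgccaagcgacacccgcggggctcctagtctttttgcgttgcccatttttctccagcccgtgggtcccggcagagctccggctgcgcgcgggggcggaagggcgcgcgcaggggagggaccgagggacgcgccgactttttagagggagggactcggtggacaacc
Jdp2, chr12:85598855-85599104, plus strand: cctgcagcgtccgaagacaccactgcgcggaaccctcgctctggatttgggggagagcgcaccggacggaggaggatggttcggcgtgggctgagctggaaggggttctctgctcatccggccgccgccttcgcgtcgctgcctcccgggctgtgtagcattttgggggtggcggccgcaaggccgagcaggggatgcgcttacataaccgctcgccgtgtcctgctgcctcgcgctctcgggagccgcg
Jun, chr4:95052223-95052472, minus strand: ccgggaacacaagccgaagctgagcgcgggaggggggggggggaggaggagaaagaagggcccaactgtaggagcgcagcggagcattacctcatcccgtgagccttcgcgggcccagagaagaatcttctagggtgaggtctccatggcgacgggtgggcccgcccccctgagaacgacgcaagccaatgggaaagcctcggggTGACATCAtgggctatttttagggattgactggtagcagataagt
Fos, chr12:85473640-85473889, plus strand: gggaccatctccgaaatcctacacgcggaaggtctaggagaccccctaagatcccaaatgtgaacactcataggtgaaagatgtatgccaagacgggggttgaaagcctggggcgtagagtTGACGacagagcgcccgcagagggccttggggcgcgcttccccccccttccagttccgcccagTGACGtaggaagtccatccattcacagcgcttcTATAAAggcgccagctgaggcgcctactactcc

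*Atf3* held TTACGTCA, 10 to 3 bases before the start, a form found in 2.52% of the 32851 windows of all genes. *Jun* held TGACATCA, 45 to 38 bases before the start, a form found in 7.49% of all windows. *Fos* held TGACG at 2 places and TATAAA 33 to 28 bases before the start, where 17.8% and 12.4% of all windows hold these letters. The windows of *Fosl2* and of the first and last of the 3 starts of *Jdp2* held none of the forms, which says only that these letters are not in these windows. The window of the middle start of *Jdp2* held TGACG, 114 to 110 bases before that start, and so did the windows of *Fosb* and *Junb*, which were not called. TGANTCA and the CArG box were in no window of the 9 members that had one (6.75% and 1.47% of all windows), and *Fosl1* had none in the table. The 6 windows of the 4 genes that rose held 61.2% to 72.4% G and C and those of the 5 uncalled members with a window 47.6% to 76.0%, beside a median of 52.4% over all windows. The motifs were chosen with the sequences in view, and a match is a description of letters, not a measured site.

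How far the calls rest on single arrays differed between the 4 genes. *Fosl2* and *Jdp2* were called in 5 of the 6 fits that left out 1 array, *Jun* in 3 and *Atf3* in 2. The number of members called higher was 4 with all arrays, 0 without differentiation replicate 1 and 5 without proliferation replicate 1. It was 2 without differentiation replicate 2 as well as without proliferation replicate 3, and 3 or 4 without either of the remaining arrays. Directions held: over those 6 fits the log2 fold change lay between 1.17 and 1.51 for *Fosl2*, 1.05 and 1.56 for *Atf3*, 0.69 and 0.80 for *Jdp2*, and 0.66 and 0.80 for *Jun*. The largest adjusted p was 0.0609 for *Fosl2*, 0.0548 for *Jdp2*, 0.0803 for *Jun* and 0.141 for *Atf3* (limma), each without differentiation replicate 1. Such fits have 5 arrays, and over all clusters they called 294 without differentiation replicate 1 and 480 without proliferation replicate 3, against 1459 with all arrays. With the replicate number as a term, which assumes that equal numbers mark 1 preparation, *Fosl2* and *Jdp2* stayed called, *Jun* (adjusted p = 0.0695) and *Atf3* (0.0839) did not, and *Fosb* was called lower (0.0425, limma). By the methods' t-test (p under 0.05 with at least 1.5-fold), *Fosl2*, *Jun*, *Atf3* and *Jdp2* were called higher and no member lower, beside 2.50% and 3.16% of all genes. After Benjamini-Hochberg adjustment of that test *Jdp2* alone stayed below 0.05 (adjusted p = 0.0473).

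**Figure D3:**
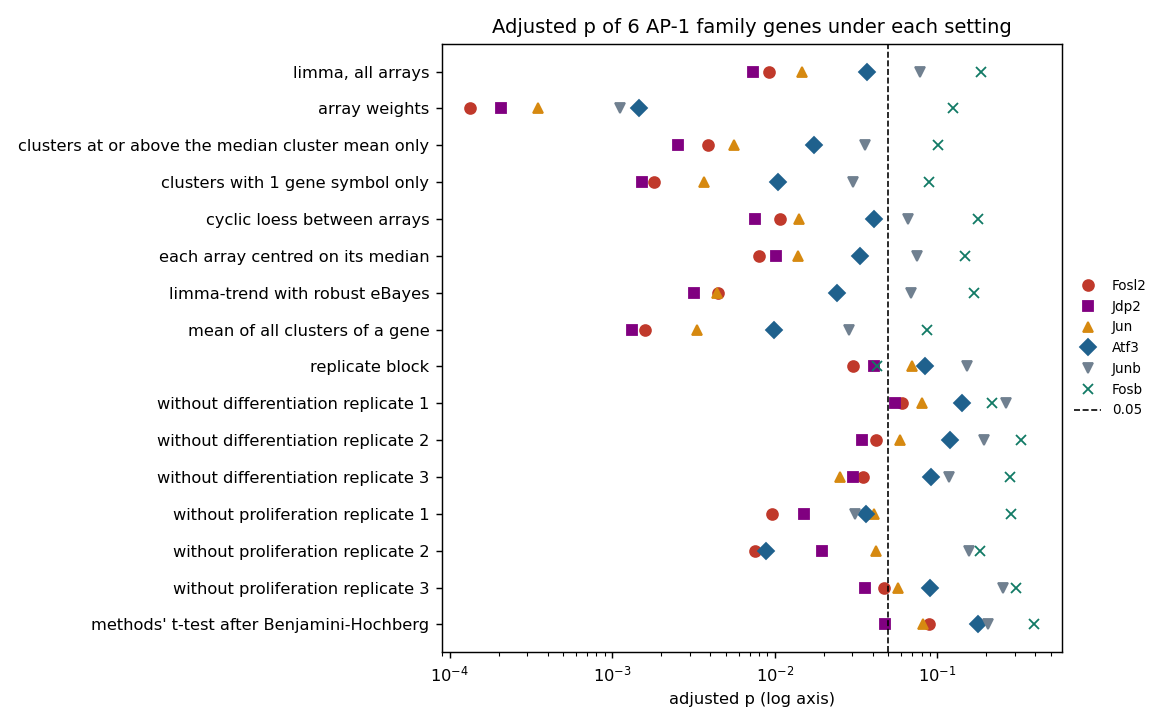
Adjusted p (log axis) of *Fosl2*, *Jdp2*, *Jun*, *Atf3*, *Junb* and *Fosb* with all arrays in limma (top line) and under the other settings, with 0.05 as a dashed line. *Atf3* is the called gene nearest the line with all arrays (0.0367) and moves to 0.141 without differentiation replicate 1, and *Junb* crosses to below 0.05 in 5 of the settings.

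Proliferation replicate 2 was the lowest of the proliferation arrays for 8 of the 10 members, where this held for 42.2% of all genes. The median SD of a member was 0.28 in proliferation and 0.11 in differentiation, and that of all genes was 0.11 in both. *Atf3* lay 0.64 below its group's mean on that array, *Fosl1* 0.49 below, *Fosl2* 0.38 below and *Fos* 0.35 below, while *Jdp2* lay 0.03 above. Without the array the change of *Atf3* was 1.05 (adjusted p = 0.00880) and that of *Fosl2* 1.17 (adjusted p = 0.00750), both smaller and with a smaller p in limma, and that of *Fos* was 0.00. What set this array apart was not tested.

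**Figure D4:**
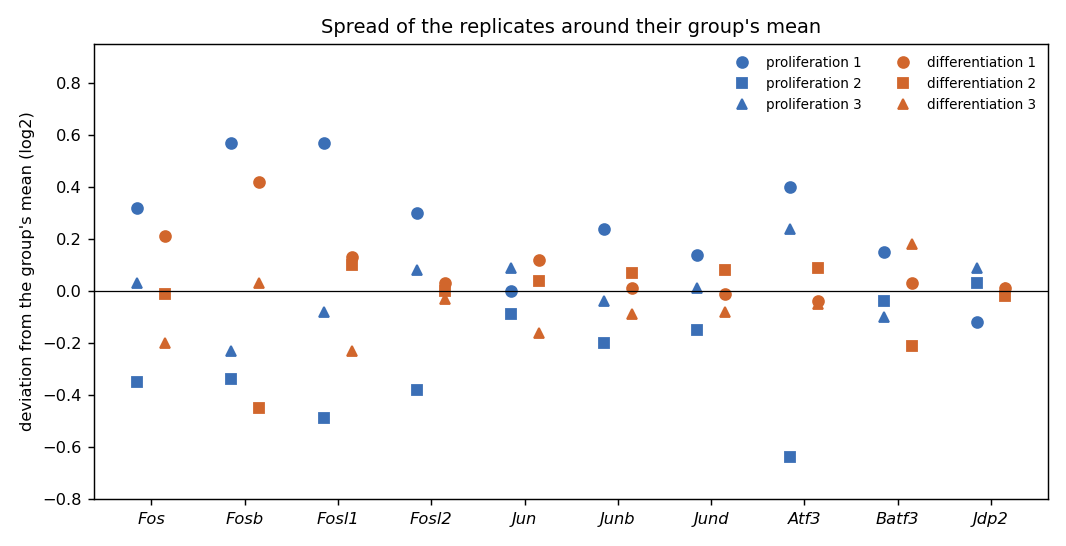
Deviation of each array from its group's mean (log2) for the 10 AP-1 family genes, with proliferation in blue, differentiation in orange and the marker shape giving the replicate. Proliferation replicate 2 (blue squares) is the lowest proliferation array for 8 genes, down to -0.64 for *Atf3*, and the differentiation arrays of *Fosl2*, *Atf3* and *Jdp2* lie close to 0.

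By Pearson's r over the 6 arrays, the genes most like *Atf3* outside the family were *Bcl3* (0.9997), *Nceh1* (0.9986) and *Tmem158* (0.9984). *Bcl3*, an atypical inhibitor of NF-kB that acts in the nucleus, measured 8.82, 7.84 and 8.65 in proliferation and 9.62, 9.71 and 9.62 in differentiation, with the same low array. Its log2 fold change was 1.21, and those of *Nceh1*, a cholesteryl ester hydrolase, and *Tmem158*, a membrane protein induced by RAS, were 1.02 and 1.03. All 3 were called (limma, adjusted p = 0.0445, 0.0356 and 0.0415). The 6 arrays form 2 groups, so these values describe the arrays and carry no test.

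Partners and regulators of AP-1 were read next, from lists of related genes. Beside the counts in these lists and in the marker lists below, 2.94% of all genes were called higher and 2.97% lower. For the counts by unadjusted p, 5560 of the 35556 clusters had an unadjusted p under 0.05 in limma, both directions together. Among 16 measured leucine zipper genes that can pair or compete with AP-1, *Mafk*, a small MAF protein without an activation domain, rose. It measured 7.52, 7.63 and 7.38 and then 8.00, 7.94 and 8.00, a log2 fold change of 0.47 ± 0.09 (SE, limma, adjusted p = 0.0413). The other 15 did not pass by their brightest cluster and the list's median was 0.10. *Atf7* had a second, less bright cluster that was called lower, at -0.5 (limma, adjusted p = 0.0219). Its brightest cluster was at -0.1 (adjusted p = 0.718). *Mafk* was called in 1 of the 6 fits that left out an array, the one without proliferation replicate 2, and it missed the threshold with each array centred on its median (adjusted p = 0.0592) and after cyclic loess (adjusted p = 0.0505).

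The MAP kinase cascades carry growth factor and stress signals to the AP-1 genes. Of 15 measured members 1 rose and 2 fell, and the median was -0.14. In limma, 6 had an unadjusted p under 0.05 on the lower side and 1 on the higher side. *Map2k1*, which encodes MEK1 of the ERK branch, measured 10.51, 10.40 and 10.41 and then 10.93, 10.96 and 11.03 (log2 fold change 0.54 ± 0.08, SE, limma, adjusted p = 0.0161). *Map2k6*, a kinase that activates p38, measured 7.66, 8.39 and 7.98 and then 6.69, 7.07 and 6.91 (-1.12 ± 0.20, limma, adjusted p = 0.0283). *Mapk12*, which encodes a p38 kinase, measured 8.78, 8.51 and 8.66 and then 7.86, 8.03 and 7.88 (-0.73 ± 0.10, limma, adjusted p = 0.0136). *Map2k1* went against the other called genes of its list. None of the 3 was called without differentiation replicate 1 or without proliferation replicate 3, and 1 was called without differentiation replicate 2 or 3.

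SRF, its ternary complex partners and CREB are the factors through which *Fos* is classically induced. Of 13 measured genes of this list 2 fell and 0 rose in limma, with a median of 0.01, and 3 had an unadjusted p under 0.05 on the higher side. *Elk3*, a ternary complex factor that can repress, measured 10.14, 10.01 and 10.00 and then 9.32, 9.51 and 9.25 (log2 fold change -0.69 ± 0.10, SE, limma, adjusted p = 0.0148). *Mef2c*, a MADS box factor of muscle and neurons, measured 10.60, 10.77 and 10.42 and then 9.96, 10.15 and 9.93 (-0.59 ± 0.12, limma, adjusted p = 0.0427). *Elk3* was called in 4 of the fits that left out 1 array and *Mef2c* in 0 of them, and neither was called without differentiation replicate 1 or proliferation replicate 3. *Srf* itself had a log2 fold change of -0.02 (limma, adjusted p = 0.953).

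Several AP-1 genes belong to the immediate early class, whose other members were read as a list. Calls were made for 5 of the 24 on the array, all of them rises, and the list's median was 0.14. An unadjusted p under 0.05 in limma was found for 9 on the higher side and 2 on the lower side. *Gadd45b*, a stress and DNA demethylation factor, measured 7.62, 6.72 and 7.54 and then 8.63, 8.87 and 8.48 (log2 fold change 1.37 ± 0.25, SE, limma, adjusted p = 0.0308). *Dusp1*, a phosphatase that switches off MAP kinases, measured 10.71, 10.39 and 10.68 and then 11.60, 11.45 and 11.55 (0.94 ± 0.11, limma, adjusted p = 0.00808). *Csrnp1*, a nuclear factor induced by axin, had a change of 0.87 (adjusted p = 0.0114), and *Ier5* one of 0.73 (adjusted p = 0.0102). *Egr1*, like *Fos* a standard readout of recent growth factor signalling, overlapped, at 10.62, 10.11 and 10.14 and then 10.42, 10.29 and 10.46 (log2 fold change 0.10, limma, adjusted p = 0.817). The fifth was *Klf6*, at 0.46 (adjusted p = 0.0241), which was called in 0 of the 6 fits that left out 1 array (lowest adjusted p = 0.0535). Leaving out differentiation replicate 1 reduced the count of 5 to 0, leaving out proliferation replicate 3 to 2, and leaving out differentiation replicate 2 or 3 to 3.

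Genes with known AP-1 sites did not move one way. Of 19 measured 2 rose and 2 fell, with a median of 0.07. *Mmp9*, a matrix protease, fell from 10.07, 9.47 and 9.58 to 6.96, 7.30 and 7.44 (log2 fold change -2.47 ± 0.19, SE, limma, adjusted p = 0.00292). *Ccnd1*, cyclin D1, fell from 11.70, 12.23 and 11.95 to 10.62, 10.68 and 10.67 (-1.31 ± 0.14, limma, adjusted p = 0.00578). *Lif*, a cytokine of the interleukin 6 family, rose by 0.95 (adjusted p = 0.0249), and *Hmox1*, the inducible heme oxygenase, rose by 0.91 (adjusted p = 0.0102). Both falls were called in each of the 6 fits that left out 1 array. The 2 rises were lost without differentiation replicate 1 and without proliferation replicate 3, and 1 of them was lost without differentiation replicate 2 or 3.

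Genes that depend on *Jun* in Schwann cells after nerve injury had the largest share of calls of these lists. There were 6 rises and 0 falls among the 11 on the array, and the median was 0.45. *Gdnf*, the ligand of the receptor that *Ret* encodes, measured 8.12, 7.06 and 7.88 and then 9.80, 9.72 and 9.87 (log2 fold change 2.11 ± 0.26, SE, limma, adjusted p = 0.00877). *Olig1*, a factor of glial cells, measured 8.85, 9.04 and 8.96 and then 10.33, 10.30 and 10.45 (1.41 ± 0.09, limma, adjusted p = 0.00192). *Artn*, a growth factor of the GDNF family, rose by 1.28 (adjusted p = 0.0179), and *Ngfr*, the low-affinity neurotrophin receptor, rose by 0.79 (adjusted p = 0.00764). *Gap43*, a growth cone protein, and *L1cam*, an adhesion molecule of axons, also rose, the first in each fit that left out 1 array and the second in 0 of the 6. Leaving out differentiation replicate 1 reduced the count to 2, differentiation replicate 2 to 4, and any other array to 5. Several of these genes had been named from these samples before the list was made, so the count is not independent evidence of a direction.

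**Figure D5:**
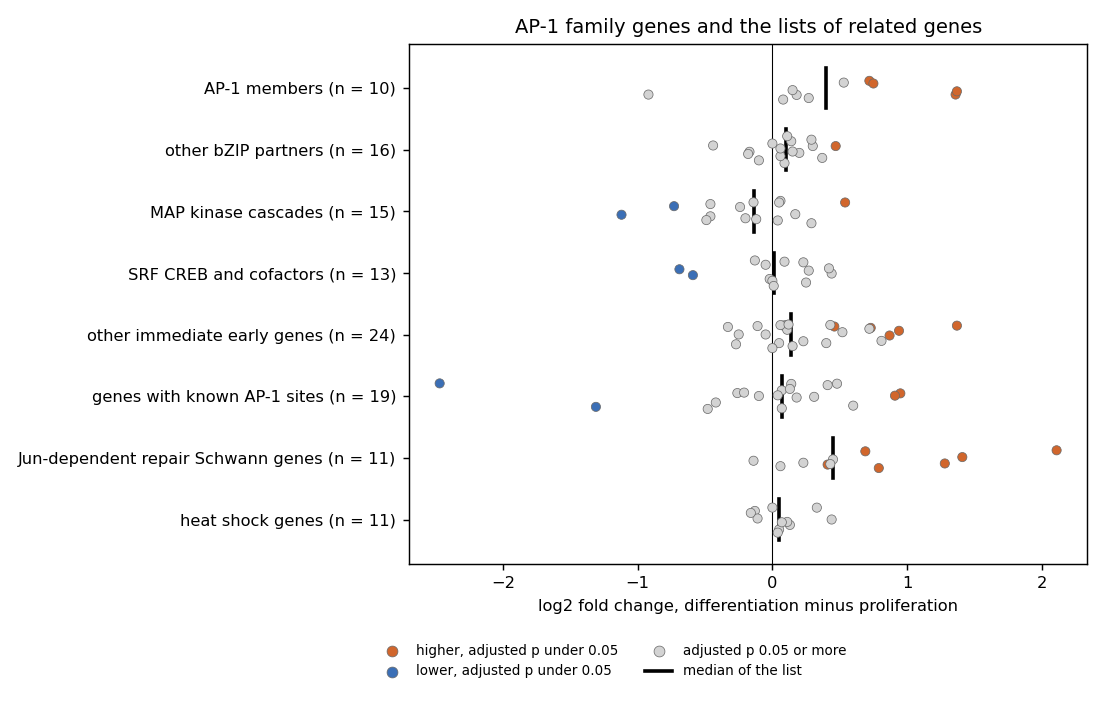
Log2 fold change (differentiation minus proliferation) of each measured gene in the AP-1 family and in 7 lists of related genes, orange where called higher, blue where called lower and grey otherwise, with the median of each list as a black bar. The medians of the AP-1 family (0.40) and the Jun-dependent Schwann cell genes (0.45) lie to the right of the others, which range from -0.14 to 0.14.

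Heat shock genes had no call among 11 measured and 0 with an unadjusted p under 0.05 in limma, with a median log2 fold change of 0.05. Whether culture or handling stress differed between the groups was not tested. *Hspa1a* was at 0.44 (limma, adjusted p = 0.393). Several of these genes have near-identical copies, so their values are less certain.

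Markers of other cell types also differed between the groups. In smooth muscle 4 of 8 markers rose (*Acta2*, *Actg2*, *Tagln* and *Cnn1*) and 1 fell (*Smtn*), and the mean log2 value of the list lay between 6.97 and 7.04 in proliferation and between 7.44 and 7.59 in differentiation. Of 3 markers of interstitial cells of Cajal 1 was called, lower (*Ano1*), with list means of 10.70 to 11.09 and 10.06 to 10.23. All 3 had an unadjusted p under 0.05 in limma on the lower side, and their median log2 fold change was -0.85. Of 7 glial markers *Gfap* rose while *S100b* and *Fabp7* fell, and of 7 neuronal markers *Tubb3* rose. Their list means ran from 10.39 to 10.75 and from 10.60 to 10.74 for glia, and from 10.13 to 10.59 and from 10.49 to 10.66 for neurons. Of 7 fibroblast markers 1 rose (*Dpt*), with list means of 9.41 to 9.92 and 9.85 to 9.99. No marker of macrophages (7), endothelium (5), epithelium (5) or mesothelium (4) was called or had an unadjusted p under 0.05 in limma, with list means between 4.94 and 6.17 on all arrays. *Actg2*, *Tagln* and *Dpt* were called in each of the 6 fits that left out 1 array, *Smtn* and *Ano1* in 5 (not without differentiation replicate 1), *Cnn1* in 4, *Fabp7* in 3, and *Acta2*, *Gfap*, *S100b* and *Tubb3* in 2. Rises in smooth muscle numbered 2 when differentiation replicate 1 or proliferation replicate 3 was left out, and no glial marker was called when either of those or differentiation replicate 3 was. An array has no true 0, so absence of a cell type cannot be read from these values. The part of these cell types in the change of the AP-1 genes was not tested.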

How the data were processed

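Total RNA of 3 proliferation and 3 differentiation samples was hybridised to Affymetrix mouse Gene 1.0 ST arrays. The deposited values are log2 intensities that the authors summarised per transcript cluster with RMA (background correction, quantile normalization, median polish), with no detection calls. The annotation build is not given in the sources used here. Of 35556 clusters, 21789 carried 1 gene symbol in the platform annotation, 1621 several and 12146 none. Genes (19938) were represented by their brightest cluster. limma 3.58.1 (R 4.3.3) compared the groups over all clusters with no other term, with Benjamini-Hochberg adjustment and a call at an adjusted p under 0.05. It was tested on simulated data. Exact permutation tests used scipy 1.17.1. The AP-1 members and lists were chosen with earlier results of these data known. Named in the text were all members, up to 4 called genes with the largest change per list that is not a marker list, any called gene alone in its direction, and the 3 genes most like the most increased member. Markers, *Atf7*, *Batf*, *Egr1*, *Gap43*, *Hspa1a*, *Klf6*, *L1cam*, *Ret*, *Sox10* and *Srf* were named after their values were seen. Of 174 list entries 162 were measured, with older symbols matched through RefSeq, and the others were not analysed here. Promoter windows came from RefSeq (GRCm38.p6), and 9 of 10 members had one. Alternatives were 10 other settings and leaving out each of the 6 arrays. The study's methods and the sample labels differ on mice per sample, EGF dose, days per culture phase and the use of the B27 supplement. The labels were used for the first 3. B27 is part of the proliferation medium in the labels but was given once before seeding in the methods. It was kept as a possible difference between the groups. Replicates are separate samples, and 3 per group limit the precision.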

Additional observations from a re-analysis of the deposited data

How the results depend on the processing

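The count of AP-1 members called higher (4) was 8 with array weights, 2 with a block for the replicate number and 1 after Benjamini-Hochberg adjustment of the methods' t-test, and it ranged from 0 to 5 when 1 array was left out. The count called lower (0) was 1 with the block, *Fosb* (adjusted p = 0.0425), and 0 in every fit without 1 array. Clusters called in all (1459) came to 12721 with array weights, 664 with the block and 253 after adjustment of the t-test, and to between 294 and 1297 without 1 array. Called genes of the 7 pathway lists together (21) came to 66, 10 and 5 in those settings, and to between 4 and 19 without 1 array. The array weights were 7.45 for differentiation replicate 1 and 3.62 for proliferation replicate 3, against 0.397 to 0.491 for the other 4, and leaving out either of these left the fewest clusters called; the cause of these changes was not tested. Under the other alternatives the member count was 4 or 5, with *Junb* as the fifth. With array weights *Fos*, *Junb*, *Jund* and *Batf3* were also called. *Atf3* and *Jun* were not called with the block (adjusted p = 0.0839 and 0.0695). The only change of sign among members was *Fosl1*, which ranged from -0.17 (without proliferation replicate 2) to 0.36 when 1 array was left out. Same-numbered samples had correlations of their deviations from the group means of 0.00, 0.09 and -0.07. These values cannot show whether equal numbers mark 1 preparation. The numbers were not taken to pair the samples in the main fit, and the calls lost or gained under the block are a limit on *Atf3*, *Jun* and *Fosb*.

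Centring each array on its median turned the split of 693 clusters higher and 766 lower into 611 and 851.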
